A study of Mus musculus with 15 samples.

Results

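The 8 genes Prox1, Lyve1, Flt4, Pdpn, Mmrn1, Vegfc, Reln and Nrp2, all used as markers or regulators of lymphatic vessels, were followed through 15 mouse skin samples. They were selected by gene symbol from a table of 18929 genes, and all 8 were among the 15369 genes that passed the filter on low counts.

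Lymphatic vessels of the skin drain fluid and immune cells from the dermis. Their endothelial cells are set apart from blood vessel endothelium by the transcription factor Prox1, and they grow when the ligand VEGF-C (Vegfc) binds the receptor VEGFR3 (Flt4), with neuropilin 2 (Nrp2) as a co-receptor. Lyve1, a hyaluronan receptor, and Pdpn (podoplanin), a membrane glycoprotein, are the usual stains for these vessels, but Lyve1 is also made by a class of tissue macrophages, and Pdpn by basal keratinocytes and activated fibroblasts. Mmrn1 (multimerin 1) and Reln (reelin) are secreted proteins made by lymphatic endothelium, Mmrn1 also by platelets and Reln by other cells.

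The study asked how beads of Matrigel, a basement membrane gel, carrying mesenchymal stem cells (MSCs) change the repair of large skin wounds. The samples fell into 5 groups of 3, all of wild-type genotype. The study's methods describe male balb/c mice, 4 to 6 weeks old, with full-thickness round wounds cut on the back, and give 4 weeks from implantation to the sampling of skin for sequencing in 1 place and an end of the wound experiment at day 21 in another, so the exact time of sampling is uncertain. Wounds of 10 mm or 15 mm were filled either with cell-free beads (acellular 10 mm and acellular 15 mm groups) or with high-cell-density beads of human umbilical cord MSCs spaced among cell-free ones (HDB 10 mm and HDB 15 mm groups), so the acellular groups share the gel but not the cells. The normal group was unwounded skin. The table holds mouse genes only, and the labels do not say whether 3 samples of a group came from 3 mice, so p-values measure the spread between these samples.

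The deposited expected counts summed to between 15840551 and 18404188 per sample. Keratinocyte genes were plentiful in every sample. Over 7 genes their summed level was 5617 to 7726 CPM (read counts divided by library size) in normal skin and 8008 to 21260 CPM in the wounds. Estimated counts of the lymphatic genes ran from 19 (Prox1, acellular 15 mm replicate 1) to 2242 (Nrp2, the same sample). The acellular 15 mm group was the least uniform, with a Pearson correlation of log2 CPM between its samples of 0.853 to 0.921, against 0.983 to 0.989 between the normal samples, so its values are given sample by sample. Skeletal muscle genes summed to 46550 to 52890 CPM in normal skin and to 597 to 34690 CPM in the wounds, and the part of this difference in the results below was not tested. In whole skin, fewer lymphatic cells, less RNA per lymphatic cell and a larger share of RNA from other cells cannot be told apart.

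In normal skin, levels per length, in reads per kilobase of the longest transcript scaled to the same total in each sample, were highest for Pdpn at 37.3 ± 12.3 (SD, n = 3), Lyve1 at 26.7 ± 17.2 and Nrp2 at 21.2 ± 1.31. Mmrn1 followed at 9.12 ± 5.31, then Vegfc at 5.56 ± 1.10, Reln at 4.82 ± 0.988, Flt4 at 4.02 ± 0.543 and Prox1 at 1.86 ± 0.514. The genes most tied to lymphatic identity, Prox1 and Flt4, were therefore the least abundant of the 8 in this tissue.

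**Figure D1:**
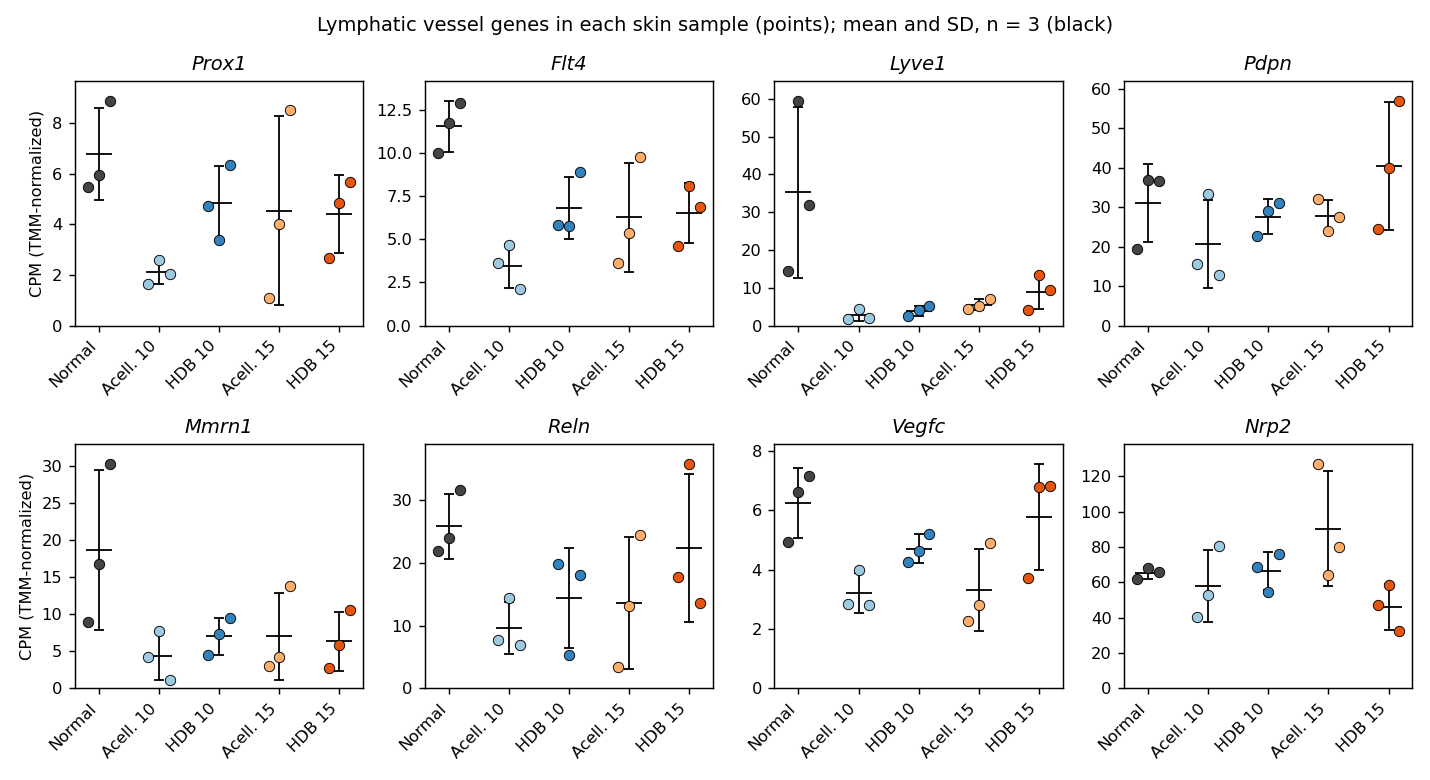
TMM-normalized CPM (vertical axes, linear, from 0) of each of the 8 genes in the 5 groups, with a point for each sample and black marks for the mean and SD (n = 3). Lyve1 and Flt4 in the 3 normal samples lie above all 12 wound samples, while Pdpn and Nrp2 overlap between normal skin and the wounds.

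All 8 genes had lower estimates in wounds than in normal skin, and 3 of them passed the test. Averaged over the 4 wound groups, Lyve1, Flt4 and Mmrn1 fell, with log2 fold changes of -2.88 ± 0.36 (SE), -1.05 ± 0.28 and -1.62 ± 0.52 (edgeR quasi-likelihood test, Benjamini-Hochberg adjusted p = 0.000945, 0.0157 and 0.0349). Among all genes tested, 16.7% were called lower in this comparison, and the median log2 fold change was 0.04, against -0.85 for the 8 genes. The other 5 did not pass: Reln at -0.85 ± 0.47 (adjusted p = 0.183), Prox1 at -0.84 ± 0.41 (adjusted p = 0.134), Vegfc at -0.60 ± 0.25 (adjusted p = 0.0812), Pdpn at -0.13 ± 0.30 (adjusted p = 0.752) and Nrp2 at -0.05 ± 0.23 (adjusted p = 0.892). In 2 genes, Lyve1 and Flt4, every wound sample lay below every normal sample, as did 11.1% of all genes.

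Flt4, the receptor for VEGF-C (Entrez gene 14257, chr11:49609679-49652739, whole gene in GRCm38.p6), varied little in normal skin, at 9.98, 11.7 and 12.9 CPM. The acellular 10 mm samples held 3.60, 4.66 and 2.10 CPM and the HDB 10 mm samples 5.80, 5.76 and 8.89 CPM. The acellular 15 mm samples held 3.63, 5.37 and 9.77 CPM and the HDB 15 mm samples 4.63, 8.06 and 6.89 CPM. The highest wound value, acellular 15 mm replicate 3, stood just under the lowest normal value, so the separation was complete but narrow, and an exact two-sided permutation test of the 12 wound against the 3 normal samples gave p = 0.0132. The group order was normal, HDB 10 mm, HDB 15 mm, acellular 15 mm and acellular 10 mm, and only normal and HDB 10 mm, among neighbours in that order, had ranges that did not overlap. The call over all wounds was lost without normal replicate 2 (-1.04, adjusted p = 0.0632) or normal replicate 3 (-0.96, adjusted p = 0.0859), runs in which the genes called in either direction went from 30.9% to 15.4% and 11.9% of all genes, and the adjusted p ran from 0.00322 to 0.0859 over the alternatives.

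Prox1, the factor that sets lymphatic identity (Entrez gene 19130, chr1:190118035-190170827), was at 5.48, 5.96 and 8.85 CPM in normal skin and at 1.66, 2.58 and 2.05 CPM in acellular 10 mm wounds. HDB 10 mm wounds held 4.74, 3.39 and 6.33 CPM. In the acellular 15 mm group the 3 samples spanned almost the whole range, at 1.08, 4.03 and 8.50 CPM, and HDB 15 mm wounds held 2.69, 4.85 and 5.65 CPM. The acellular 10 mm samples were thus the consistently low ones, below all normal and all HDB samples, while the acellular 15 mm group held both the lowest and the second highest value of all 15. Along the order of group means (normal, HDB 10 mm, acellular 15 mm, HDB 15 mm, acellular 10 mm) the only neighbours whose ranges did not overlap were HDB 15 mm and acellular 10 mm, where the exact permutation p of 0.1 is the smallest that 3 against 3 samples allow.

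Mmrn1, the multimerin of lymphatic endothelium and platelets (Entrez gene 70945, chr6:60944317-60989378), was at 8.99, 16.7 and 30.3 CPM in normal skin. It was at 4.22, 7.75 and 1.17 CPM in acellular 10 mm wounds and at 4.44, 7.26 and 9.44 CPM in HDB 10 mm wounds. Acellular 15 mm wounds held 3.00, 4.20 and 13.8 CPM and HDB 15 mm wounds 2.69, 5.82 and 10.6 CPM. Replicate 3 of HDB 10 mm, acellular 15 mm and HDB 15 mm exceeded the lowest normal sample, so wounds and normal skin overlapped, and all neighbouring groups in the order of means overlapped too. Its call over all wounds was lost without acellular 10 mm replicate 1 (-1.61, adjusted p = 0.0529), HDB 10 mm replicate 2 (-1.62, 0.0506), HDB 15 mm replicate 1 (-1.52, 0.0506), normal replicate 2 (-1.69, 0.0891) or normal replicate 3 (-1.07, 0.260), with adjusted p from 0.0116 to 0.260 over all alternatives. Calls over all genes fell in these runs too, from 30.9% to 25.7%, 27.6%, 25.1%, 15.4% and 11.9%. Of the 4 platelet genes tested, Pf4 and Ppbp also fell in the wounds, by 2.17 and 1.81 on the log2 scale (edgeR adjusted p = 0.0023 and 0.022), while Itga2b was at -0.017 and Gp1bb at 0.55 (edgeR adjusted p = 0.964 and 0.158). The summed level of the 4 was 10.2 to 21.6 CPM in wounds and 20.7 to 35.8 CPM in normal skin. Within it, Pf4 averaged 17.8 CPM in normal skin and 2.62 to 8.26 CPM in the wound groups. Ppbp was scarce, with means of 2.55 CPM in normal skin and 0.52 to 0.87 CPM in the wound groups. The part of platelets in the Mmrn1 values was not tested.

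Flt4 and Mmrn1 were the most alike pair among the 8 genes, with a Pearson correlation of log2 CPM of 0.906 over the 15 samples and 0.889 after each group's mean was removed. Because these genes move together, the 250 bases upstream of each start are shown, from the RefSeq promoter table for GRCm38.p6, in which 7 of the 8 genes were found. Each GGAA, the core of ETS factor sites, is in capitals, as TTCC where it lies on the other strand.

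Flt4, chr11:49609429-49609678, plus strand: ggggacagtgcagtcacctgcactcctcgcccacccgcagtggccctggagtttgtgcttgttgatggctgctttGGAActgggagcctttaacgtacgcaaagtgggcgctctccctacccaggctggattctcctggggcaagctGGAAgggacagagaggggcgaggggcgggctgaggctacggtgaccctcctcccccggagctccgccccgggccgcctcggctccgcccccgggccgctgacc

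Mmrn1, chr6:60944067-60944316, plus strand: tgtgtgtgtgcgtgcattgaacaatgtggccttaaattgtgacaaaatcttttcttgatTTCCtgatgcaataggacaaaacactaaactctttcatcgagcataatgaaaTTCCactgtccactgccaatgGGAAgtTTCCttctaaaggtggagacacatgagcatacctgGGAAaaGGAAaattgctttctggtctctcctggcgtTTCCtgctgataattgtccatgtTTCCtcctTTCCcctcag

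The Mmrn1 window held 9 GGAA cores on the 2 strands together and the Flt4 window held 2. Of 32851 promoter windows of the same length, 93.4% held at least 1, with a median of 3, and 0.505% held as many as the Mmrn1 window, against 76.8% for the Flt4 window. AACAAT, a SOX factor core, was found once in the Mmrn1 window, not in the Flt4 window, and in 9.42% of all windows. AGGTCA, a core bound by nuclear receptors such as COUP-TFII, was in neither window and in 14% of all. These are letter matches on both strands and do not show binding.

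Lyve1, the hyaluronan receptor (Entrez gene 114332, chr7:110850607-110862953), showed the largest difference of the 8 genes. Normal skin held 14.5, 59.4 and 32.0 CPM. Acellular 10 mm wounds held 1.77, 4.27 and 2.05 CPM and HDB 10 mm wounds 2.60, 4.04 and 5.22 CPM. The levels were 4.36, 5.08 and 7.06 CPM in acellular 15 mm wounds and 4.11, 13.3 and 9.49 CPM in HDB 15 mm wounds. All 12 wounds lay below the lowest normal sample, and the exact permutation p of 0.0022 is the smallest these samples can give. The group order was normal, HDB 15 mm, acellular 15 mm, HDB 10 mm and acellular 10 mm. The wound groups overlapped with their neighbours, and normal skin did not. The fall over all wounds passed the test under every alternative run, including each library left out, with adjusted p from 1.4e-09 to 0.00907.

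Between the 3 normal samples Lyve1 ranged more widely than the other genes, and macrophage genes varied with it. The summed CPM of 11 macrophage genes in normal replicates 1, 2 and 3 was 370.2, 1079 and 682.3, in the same order as Lyve1. Over the wounds that sum ran from 85.8 to 500.3 CPM, and 9 of the 11 genes were called lower over all wounds (16.7% of all genes), with Folr2, Cd163 and Timd4, genes of tissue-resident macrophages, at -2.96, -2.95 and -2.81 on the log2 scale. Csf1r, the most abundant of the list, was at -1.38 (adjusted p = 0.0139). The other 2 did not pass, Fcgr1 at -0.88 (adjusted p = 0.109) and Cd68, a general macrophage gene, at 0.17 (adjusted p = 0.820). Across the 15 samples, the Pearson correlation of Lyve1 with the mean log2 CPM of the macrophage list was 0.941, the highest of the 11 lists compared, and it was 0.825 after group means were removed and 0.864 over the 12 wounds alone. With the 12 pan-endothelial genes these correlations were 0.868, 0.423 and 0.731. Flt4 followed the pan-endothelial mean at 0.889 and the macrophage mean at 0.874, and after group means were removed it followed the pan-endothelial mean at 0.765, the macrophage mean at 0.810 and the fibroblast mean at 0.842. The points share libraries, and the cell source of the Lyve1 reads was not tested.

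**Figure D2:**
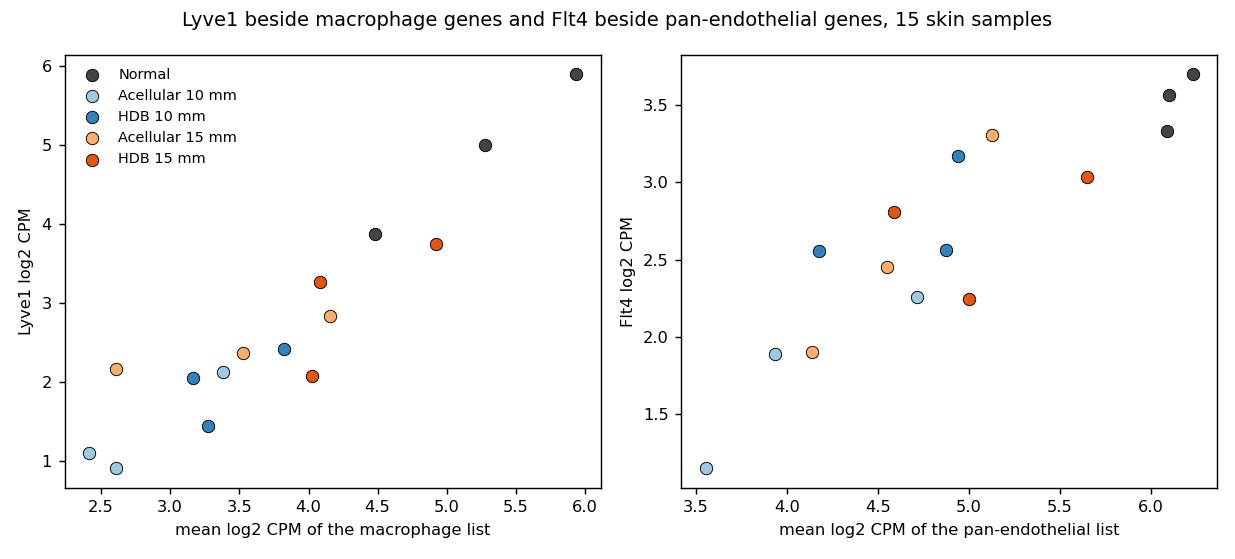
Left, log2 CPM of Lyve1 (vertical axis) against the mean log2 CPM of 11 macrophage genes; right, log2 CPM of Flt4 against the mean log2 CPM of 12 pan-endothelial genes, each point being 1 of 15 skin samples coloured by group. The normal samples are at the upper right in both, and the Pearson correlations are 0.941 and 0.889.

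Pdpn, the podoplanin glycoprotein (Entrez gene 14726, chr4:143267409-143299564), did not separate wounds from normal skin. Normal samples held 19.5, 36.8 and 36.8 CPM. The lowest wound values were in the acellular 10 mm group at 15.6, 33.5 and 12.9 CPM, and the highest in the HDB 15 mm group at 24.4, 40.0 and 56.9 CPM. HDB 10 mm wounds held 22.6, 29.0 and 31.2 CPM and acellular 15 mm wounds 32.1, 23.9 and 27.6 CPM. It was the only gene of the 8 whose highest mean was in HDB 15 mm wounds, at 40.4 ± 16.3 CPM against 31.0 ± 9.97 CPM in normal skin, and all neighbouring groups overlapped.

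Reln, the secreted reelin protein (Entrez gene 19699, chr5:21884454-22344705), was at 21.9, 24.0 and 31.7 CPM in normal skin. Acellular 10 mm wounds held 7.65, 14.4 and 6.84 CPM and HDB 10 mm wounds 19.8, 5.27 and 18.1 CPM. Acellular 15 mm wounds held 3.34, 13.1 and 24.4 CPM and HDB 15 mm wounds 17.8, 35.8 and 13.6 CPM. Only the acellular 10 mm and HDB 10 mm groups lay wholly below normal skin, as did 27.2% and 23.4% of all genes. HDB 15 mm replicate 2 was the highest of all 15 samples. Over the 15 samples Reln correlated with the mean of the Schwann cell and nerve list at 0.914, and at 0.922 after group means were removed, against 0.836 and 0.887 with the pan-endothelial list. Its highest correlation among the 11 lists was 0.940, with lymphatic specification and valve genes.

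Vegfc, the ligand (Entrez gene 22341, chr8:54077532-54186454), was at 4.92, 6.63 and 7.18 CPM in normal skin. It was at 2.85, 3.99 and 2.81 CPM in acellular 10 mm wounds and at 4.26, 4.63 and 5.22 CPM in HDB 10 mm wounds. Acellular 15 mm wounds held 2.27, 2.80 and 4.89 CPM and HDB 15 mm wounds 3.71, 6.79 and 6.83 CPM. Both acellular groups lay wholly below normal skin, as did 27.2% of all genes at 10 mm and 21.5% at 15 mm. At 15 mm the margin was narrow, 4.885 against 4.918 CPM. Both HDB groups overlapped normal skin, and edgeR called no Vegfc difference between HDB and acellular wounds. The order of means was normal, HDB 15 mm, HDB 10 mm, acellular 15 mm and acellular 10 mm, each overlapping the next. Of the 11 lists, Vegfc correlated best with the fibroblast genes, at 0.925 over the 15 samples and 0.907 within groups, and fibroblast genes summed to 2411 to 10550 CPM in acellular wounds and 6035 to 12140 CPM in HDB wounds. The part of fibroblasts in the Vegfc values was not tested.

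Nrp2, the co-receptor (Entrez gene 18187, chr1:62703317-62818692), was nearly constant in normal skin at 61.7, 68.4 and 66.1 CPM. The acellular 10 mm samples were at 40.2, 53.0 and 80.6 CPM and the HDB 10 mm samples at 68.8, 54.5 and 76.0 CPM. The acellular 15 mm samples were at 127.1, 64.2 and 80.0 CPM and the HDB 15 mm samples at 47.2, 58.8 and 32.5 CPM. Nrp2 was thus the only gene of the 8 with its highest mean in acellular 15 mm wounds and its lowest in HDB 15 mm wounds, and neighbouring groups overlapped throughout. It stood apart from the other 7, with correlations between -0.33 and 0.03, and its correlation with the pan-endothelial mean was 0.01. Its strongest correlation among the lists was negative, -0.83 with keratinocyte genes after group means were removed (-0.53 before), and 6 of the 7 keratinocyte genes rose over all wounds, where 14.2% of all genes were called higher.

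Taken group by group, the fall against normal skin was widest in acellular 10 mm wounds. These 4 comparisons share the same 3 normal samples. In acellular 10 mm wounds Lyve1 (-3.71 ± 0.59, adjusted p = 0.0052) and Flt4 (-1.74 ± 0.39, adjusted p = 0.0133) were called, 2 of 8 against 10.6% of all genes, and Prox1 (-1.69 ± 0.57, adjusted p = 0.0527), Vegfc (-0.96 ± 0.33, adjusted p = 0.0549), Mmrn1 (-2.09 ± 0.76, adjusted p = 0.0661) and Reln (-1.43 ± 0.64, adjusted p = 0.124) were not. All 6 of these lay wholly below normal skin, as did 27.2% of all genes. With DESeq2 5 of the 8 were called, and 4556 of 18784 genes tested (28.7% of those it gave an adjusted p). With edgeR 20.3% of all genes were called (both directions). Flt4 was lost without acellular 10 mm replicate 1 or normal replicate 3 (adjusted p = 0.0516 and 0.0511, range over alternatives 0.000202 to 0.0516), when 5.14% and 5.8% of all genes were called. The medians of 7 other lists were also lowest in these wounds. They were -0.46 for the VEGF-C processing and receptor genes (3 of 12 called lower), -1.29 for the specification and valve genes (10 of 19), -0.95 for the other lymphatic markers (2 of 10), -1.76 for the pan-endothelial (12 of 12 called), -2.40 for the macrophage (10 of 11), -1.81 for the fibroblast (5 of 8) and -2.96 for the adipocyte genes (5 of 6), against -1.56 for the 8 lymphatic genes, and the part of such cells in the fall was not tested. The skeletal muscle (-2.63) and Schwann cell and nerve genes (-0.63) were lowest in acellular 15 mm wounds and the platelet genes (-1.16) in HDB 10 mm wounds, against -1.79, -0.38 and -0.84 here.

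In acellular 15 mm wounds only Lyve1 was called, at -2.68 ± 0.55 (adjusted p = 0.00671), where 12.6% of all genes were called lower. Lyve1, Flt4 (-0.88 ± 0.38, adjusted p = 0.0920) and Vegfc (-0.91 ± 0.33, adjusted p = 0.0511) lay wholly below normal skin, as did 21.5% of all genes. Without acellular 15 mm replicate 3, the highest of its group in 6 of the 8 genes, 4 were called, namely Lyve1, Flt4, Mmrn1 and Vegfc, while the share of all genes called in either direction went from 30.2% to 37.3%. In HDB 10 mm wounds Lyve1 was again the only call, at -3.16 ± 0.57 (adjusted p = 0.0115, with 6.23% of all genes called lower), and it was lost without HDB 10 mm replicate 2 (adjusted p = 0.0540) or normal replicate 3 (adjusted p = 0.0529), when the share of all genes called in either direction went from 12.3% to 1.15% and 0.501%. Lyve1, Flt4 and Reln lay wholly below normal skin there, as did 23.4% of all genes.

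In HDB 15 mm wounds none of the 8 was called by edgeR, where 2.51% of all genes were called lower. Of the 8, 2 had an unadjusted p under 0.05, as had 4133 of the 15369 genes. Lyve1 came closest, at -1.98 ± 0.54 (adjusted p = 0.0522, range over alternatives 0.00429 to 0.182), and was the 1 gene of the 8 that DESeq2 called. DESeq2 called 2370 of 18784 genes tested there (14.9% of those it gave an adjusted p). Lyve1, Flt4 and Nrp2 lay wholly below normal skin, as did 22.6% of all genes. The median over the 8 genes was -1.56 for the acellular and -0.62 for the HDB wounds of 10 mm, and -0.89 for the acellular and -0.56 for the HDB wounds of 15 mm. The median over all genes was between 0.02 and 0.06 in these comparisons.

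**Figure D3:**
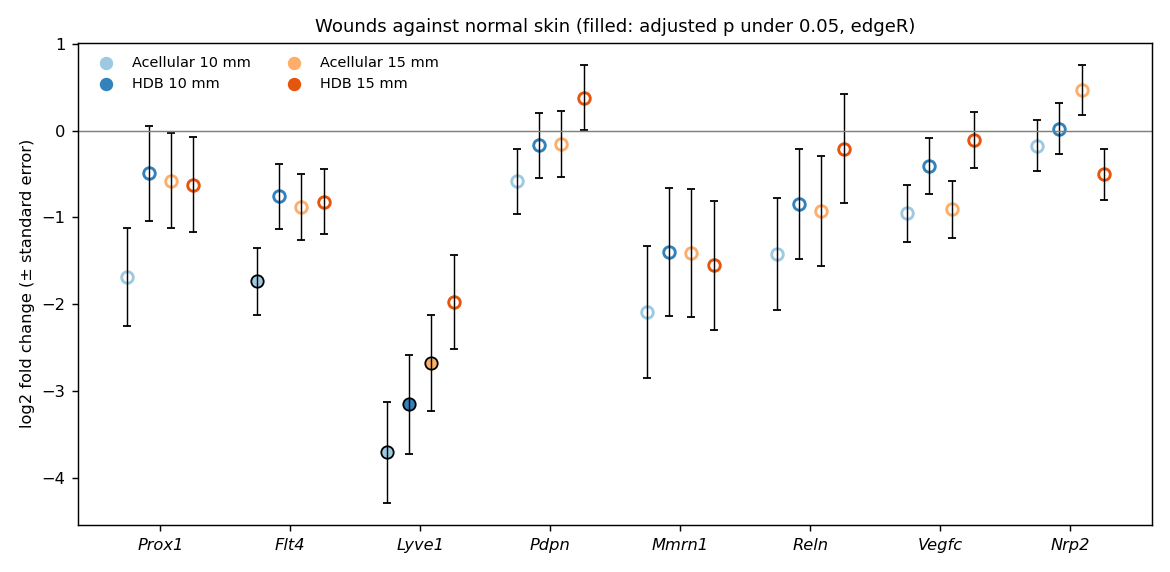
Log2 fold change against normal skin (vertical axis, with standard error) of each gene in the 4 wound groups, from the edgeR fit of 15 samples; filled points passed an adjusted p of 0.05. Lyve1 has the lowest estimate in every group, from -3.71 in acellular 10 mm to -1.98 in HDB 15 mm wounds.

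Whether the MSCs changed these genes was asked within each wound size. In 10 mm wounds all 8 estimates were higher with HDB than with acellular beads, and none was called. Prox1 was at 1.20 ± 0.56, Flt4 at 0.98 ± 0.38 and Vegfc at 0.55 ± 0.32, and in these 3 genes every HDB sample lay above every acellular sample, as in 4.53% of all genes. The adjusted p was 0.9999 for all 8 (edgeR), and 0% of all genes were called, with 543 genes, Flt4 among them (unadjusted p = 0.0245), under an unadjusted p of 0.05 and 15 called by DESeq2, none of them among the 8. The approximate 95% interval of the Flt4 difference ran from 0.23 to 1.73 and that of Prox1 from 0.09 to 2.30. The Prox1 interval left out 0 although its unadjusted edgeR p was 0.0539, because these intervals are narrower than the test implies. The median over the 8 genes was 0.57, against -0.01 over all genes, 0.49 for the 12 pan-endothelial genes, 0.49 for the 11 macrophage genes, 0.95 for the 8 fibroblast genes and 1.30 for the 6 adipocyte genes.

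In 15 mm wounds the picture differed between the genes. Vegfc was at 0.80 ± 0.32 (adjusted p = 0.168), Reln at 0.71 ± 0.63, Lyve1 at 0.70 ± 0.53 and Pdpn at 0.54 ± 0.38, while Flt4 (0.06 ± 0.38), Prox1 (-0.05 ± 0.55) and Mmrn1 (-0.14 ± 0.73) were near 0. Nrp2 was lower with HDB beads, at -0.97 ± 0.30 (approximate 95% interval -1.55 to -0.39, adjusted p = 0.0867), with all HDB samples below all acellular ones, as in 11.7% of all genes. None of the 8 was called by edgeR, and 2.93% of all genes were. Of the 8, 2 had an unadjusted p under 0.05, as had 3567 of the 15369 genes. DESeq2 called Nrp2 (adjusted p = 0.0215, range over alternatives 0.0215 to 0.465) and 1792 of 18784 genes tested (12.4% of those it gave an adjusted p). Without acellular 15 mm replicate 1, which held the highest Nrp2 value, the Nrp2 difference was -0.64, and without acellular 15 mm replicate 3 the Vegfc difference rose to 1.19 (adjusted p = 0.0332, range 0.0332 to 0.512) and those of Prox1 and Mmrn1 turned to 0.78 and 0.82, in a run that called 14.9% of all genes. The median over the 8 genes was 0.30, beside 0.87 for the macrophage, 0.79 for the fibroblast, 0.92 for the Schwann cell and nerve, 0.90 for the skeletal muscle, 0.41 for the pan-endothelial and 0.41 for the adipocyte genes, and the part of such cells in the estimates was not tested.

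Over both sizes 7 of the 8 estimates were positive and none was called (0% of all genes, with 2428 genes under an unadjusted p of 0.05 and 223 called by DESeq2, none of the 8 among them). Vegfc had the smallest p, with a difference of 0.67 ± 0.23 (approximate 95% interval 0.22 to 1.12, adjusted p = 0.261) and an exact permutation p of 0.025 with labels permuted within size. Vegfc was also the only gene of the 8 with decimal expected counts, in 13 of the 15 samples. Lyve1 (0.63 ± 0.38), Reln (0.65 ± 0.45), Prox1 (0.58 ± 0.39), Flt4 (0.52 ± 0.27), Pdpn (0.48 ± 0.27) and Mmrn1 (0.27 ± 0.52) were higher in their estimates and Nrp2 (-0.39 ± 0.21) lower. Beside them, the median over both sizes was 0.53 for the pan-endothelial, 0.72 for the macrophage, 0.96 for the fibroblast and 0.80 for the adipocyte genes, with none of these called by edgeR and the fibroblast gene Dcn by DESeq2, and the part of such cells in the estimates was not tested. The difference between the sizes was tested as an interaction, in which 0% of all genes were called (2063 under an unadjusted p of 0.05, 608 by DESeq2). Nrp2 had the smallest interaction p of the 8 at an estimate of -1.17 ± 0.42 (adjusted p = 0.243, exact permutation p = 0.055), being 0.20 higher with HDB beads in 10 mm wounds and lower in 15 mm wounds.

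**Figure D4:**
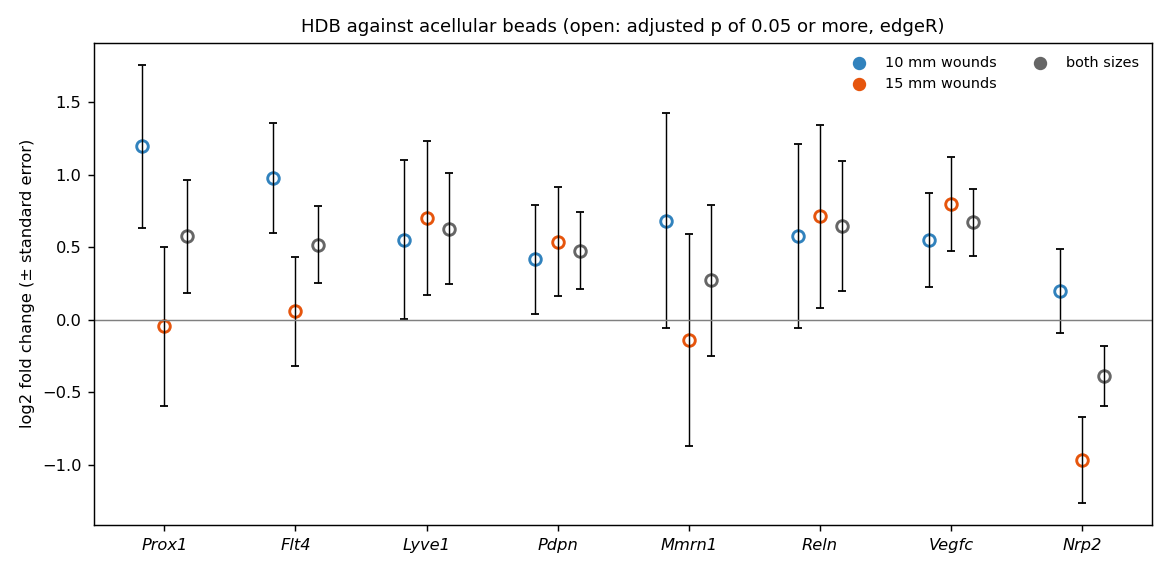
Log2 fold change of HDB against acellular wounds (vertical axis, with standard error) for each gene in 10 mm wounds, 15 mm wounds and over both sizes; open points did not pass an adjusted p of 0.05. Estimates for 10 mm wounds are all above 0, and Nrp2 in 15 mm wounds is the lowest at -0.97.

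Other genes of the pathway were read from lists of related genes. Of 12 genes for VEGF-C processing and VEGF receptors, 4 fell over all wounds and 2 rose, beside 16.7% of all genes called lower and 14.2% called higher. Those that fell included Flt1 (-1.85) and Kdr (-1.70), the VEGF receptors of blood vessels, while Adamts3, the protease that trims pro-VEGF-C, rose by 1.54 (edgeR adjusted p = 0.0016, 0.0041 and 0.0217). Adamts3 was scarce, at 0.20 to 0.63 CPM in normal skin and 0.54 to 2.83 CPM in wounds, and the 2 ranges overlapped. Vegfa, the most abundant gene of that list, was at -0.38 (adjusted p = 0.294), and Pgf at -0.47 (adjusted p = 0.314). Of 19 genes of lymphatic specification and valves, 10 fell, including the angiopoietin receptor genes Tek (-1.52) and Tie1 (-1.43) and the venous and lymphatic factor Nr2f2 (-1.34), and 2 rose, among them the most abundant, the ephrin ligand gene Efnb2 (0.82). Fat4 (-0.84, adjusted p = 0.0856) and Hhex (-0.82, adjusted p = 0.119) did not pass. Of 10 other lymphatic markers 4 fell, including Ramp2 (-1.35), Calcrl (-1.29) and Adm (-1.06), the adrenomedullin receptor parts and ligand, whereas Stab2 (-1.17, adjusted p = 0.104) and Ccl21a (-0.91, adjusted p = 0.244), the chemokine of lymphatic vessels, did not pass, nor did Fgl2 (-0.33, adjusted p = 0.509), the most abundant of them. Of the estimates for these 10 markers over all wounds, 8 were negative and 2 were positive. No gene of these 3 lists was called by edgeR between HDB and acellular wounds at either size or over both. Over both sizes 2 of the 12 VEGF-C and receptor genes, 8 of the 19 specification and valve genes and 1 of the 10 other markers had an unadjusted p under 0.05, as had 2428 of the 15369 genes. The same counts were 0, 2 and 0 in 10 mm wounds (543 of all genes) and 2, 0 and 1 in 15 mm wounds (3567 of all genes). DESeq2 called the protease genes Furin and Pcsk7 lower and Ramp2 higher with HDB beads in 15 mm wounds (1792 genes called in all), Pcsk7 lower over both sizes (223 in all), and none of the lists' genes in 10 mm wounds (15 in all).

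Blood and lymphatic endothelium share many genes, and the 12 pan-endothelial genes all fell over all wounds (12 of 12 called, median -1.28), at -2.18 for Ptprb and Vwf, -1.80 for Erg and -1.46 for Pecam1, the most abundant. Their summed level was 963.7 to 1066 CPM in normal skin and 162.6 to 699.6 CPM in wounds. Each gene was therefore also expressed relative to the mean log2 CPM of these 12 genes, and wounds and normal skin were compared by exact two-sided permutation over samples, in 8 tests. Since the reference itself fell, by 1.54 in its mean, a gene with the same level in wounds and normal skin is higher on this scale, and 95.2% of the other 15357 genes were, with a median difference of 1.56. Lyve1 was lower relative to that mean, at a difference of -1.18 on the log2 scale (exact permutation p = 0.0198), with -2.39 ± 0.56 (SD, n = 12) in wounds and -1.22 ± 1.01 (n = 3) in normal skin and 7 of 12 wounds below all normal samples. With 1 normal sample left out this difference ran from -1.68 (without replicate 1) to -0.67 (without replicate 2). Pdpn (1.40, p = 0.0022), Vegfc (0.93, p = 0.0044) and Nrp2 (1.45, p = 0.0176) were higher relative to it (exact permutation tests), each with 12 of 12 wounds above all normal samples, as in 68.9% of all genes, and each by less than the median gene. Flt4 (0.45, p = 0.0637), Prox1 (0.61, p = 0.138), Reln (0.50, p = 0.136) and Mmrn1 (-0.13, p = 0.833) did not pass 0.05 in the same exact test. Flt4, which fell as a level, had a positive difference on this scale, with 10 of 12 wounds above all normal samples. The 11 macrophage genes differed among themselves over all wounds, from -2.96 for Folr2 to 0.17 for Cd68. Folr2, Cd163 (-2.95) and Timd4 (-2.81) were close to Lyve1 (-2.88). Relative to the mean of all 11, the Lyve1 difference was -0.98 (exact permutation p = 0.0044), with 11 of 12 wounds below all normal samples. The other 7 differences were positive on that scale, as were 96.2% of all genes (median 1.76), and Pdpn (1.603, exact permutation p = 0.0022), Vegfc (1.13, p = 0.0022) and Nrp2 (1.65, p = 0.0242) passed. Flt4 (0.65, exact permutation p = 0.0462) did not after adjustment over the 8 tests (0.0739), nor did Prox1 (0.81), Reln (0.70) or Mmrn1 (0.072), with exact permutation p = 0.0571, 0.0857 and 0.881.

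**Figure D5:**
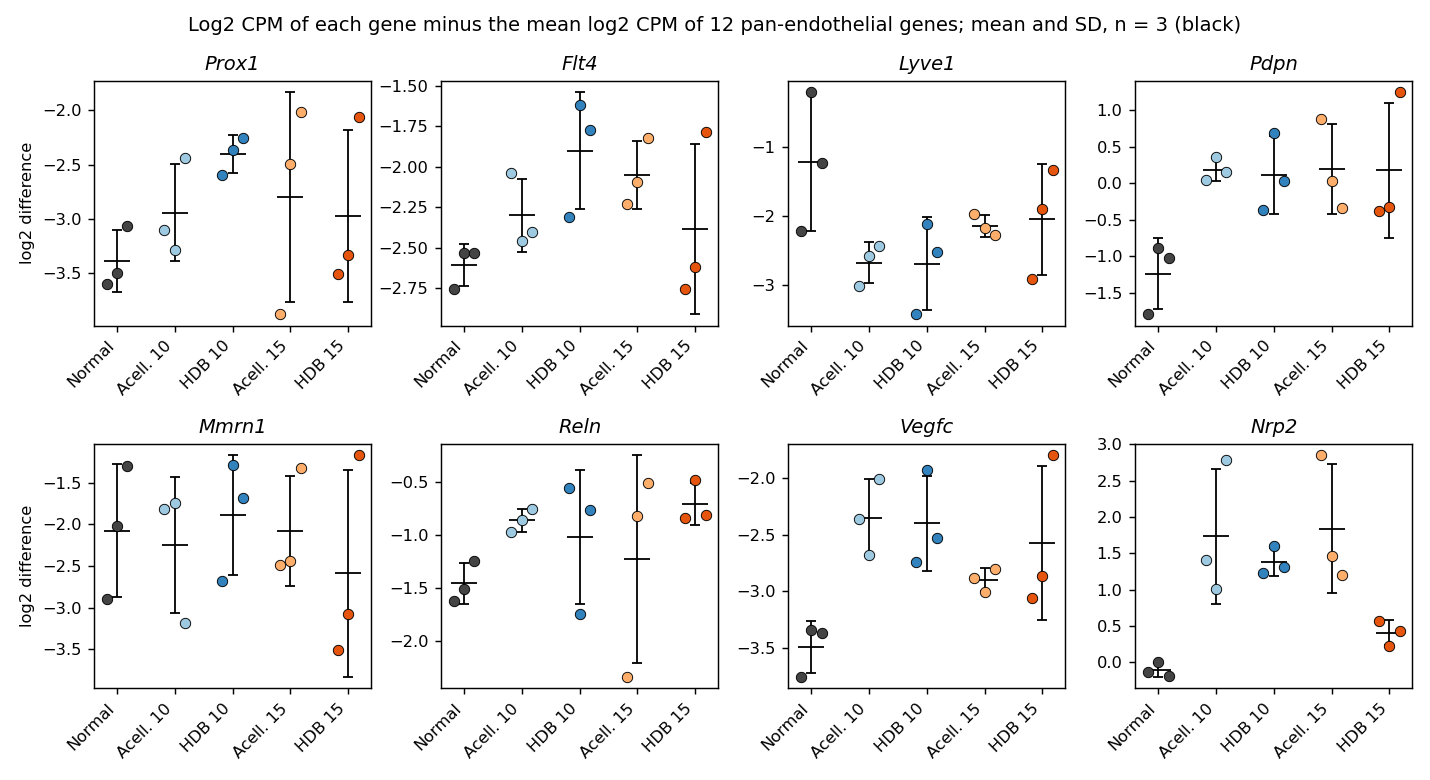
Log2 CPM of each gene minus the mean log2 CPM of 12 pan-endothelial genes (vertical axes, log2 difference, not starting at 0) in the 5 groups, with a point for each sample and black marks for the mean and SD (n = 3). Pdpn, Vegfc and Nrp2 are higher in all 12 wounds than in normal skin on this scale, as are 68.9% of all genes, and Lyve1 is lower on average.

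The other genes most like the 8 together, by the Pearson correlation of log2 CPM with the mean of the members' z-scores over the 15 samples and 15361 genes, were Elk3 (0.957), Ms4a4a (0.951), Hacd4 (0.947), Klhl4 (0.942) and Ptprj (0.941). After each group's mean was removed the leading genes were Ptprj (0.972), Tnfsf13b (0.930), Ikbip (0.929), Tifa (0.928) and Dock4 (0.921).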

How the data were processed

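The authors deposited 1 table of expected counts (estimated counts, not normalized) for the 15 samples. The submitters' processing notes name HISAT2 2.0.4, Bowtie2 2.2.5, RSEM 1.2.12 and the build GRCm38.p6. Counts were rounded to whole numbers. In R 4.3.3, edgeR 4.0.16 (TMM, filterByExpr, quasi-likelihood test) fitted 5 group means to all 15 samples, with Benjamini-Hochberg adjustment over 15369 genes and a threshold of 0.05. Levels are TMM-normalized CPM, log2 CPM used a prior count of 2, and standard errors are the fold change over the square root of F. Exact permutation tests used 20, 400 or 455 arrangements (smallest p 0.1, 0.005 and 0.0022). The 8 genes and all lists were chosen with earlier results of these data known. The text names all 8 genes, and of other lists the most abundant gene, up to 3 called genes with the largest changes and up to 2 with the smallest p not called. Same-numbered samples deviated together only between the acellular and HDB 15 mm groups (correlations 0.397, 0.167 and 0.183), and nothing else says what the numbers mark. Alternatives were DESeq2 1.42.0, other filters, a length correction, the replicate block, only the groups compared and leaving out each sample. Depth allowed at least 19 reads for each of the 8 genes in each sample.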

Additional observations from a re-analysis of the deposited data

How the results depend on the processing

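Counts of called genes among the 8 changed with the setting in these comparisons. Shares of all genes called are in brackets, and for DESeq2 they are shares of the genes it gave an adjusted p. In acellular 10 mm wounds against normal skin, where edgeR called 2 (20.3%), DESeq2 called 5 (28.7%), the replicate block 4 (16%), the length correction with the replicate block 4 (16.9%), and a fit of only the groups compared 6 (42%). In acellular 15 mm wounds, with 1 call (30.2%), DESeq2 (36.3%), the replicate block (25.3%) and the length correction with the replicate block (23.1%) each called 2. In HDB 10 mm wounds, with 1 call (12.3%), only the groups compared gave 2 (20.2%). In HDB 15 mm wounds, with 0 calls (5.18%), DESeq2 (14.9%), a mean count of at least 50 (7.08%), the replicate block (1.54%), the length correction (5.7%), the length correction with the replicate block (1.92%) and only the groups compared (22.9%) each gave 1. Between HDB and acellular 15 mm wounds, with 0 calls (2.93%), DESeq2 gave 1 (12.4%). The cause was not tested.

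With each sample left out in turn, the counts changed as follows, with the share of all genes called in that run after each. They ran from 1 to 5 over all wounds (1 without normal replicate 2, 15.4%, or 3, 11.9%, and 5 without acellular 15 mm replicate 3, 36.7%) and from 1 to 2 in acellular 10 mm wounds (1 without acellular 10 mm replicate 1, 5.14%, or normal replicate 3, 5.8%). They ran from 1 to 4 in acellular 15 mm wounds (4 without acellular 15 mm replicate 3, 37.3%), from 0 to 1 in HDB 10 mm wounds (0 without HDB 10 mm replicate 2, 1.15%, or normal replicate 3, 0.501%) and from 0 to 1 in HDB 15 mm wounds (1 without HDB 15 mm replicate 2, 8.61%). Between HDB and acellular 15 mm wounds they ran from 0 to 1 (1, Vegfc, without acellular 15 mm replicate 3, 14.9%).

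Among settings that keep all samples, 3 estimates changed sign. Pdpn in acellular 15 mm wounds was 0.011 with the length correction and 0.10 with the replicate block added. Nrp2 in HDB 10 mm wounds was -0.018 and -0.022. Prox1 between HDB and acellular 15 mm wounds was 0.12 with the replicate block, 0.28 with the length correction and 0.43 with both. The same-number pairing at 15 mm changed no call there.

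Leaving out 1 sample at a time, further estimates crossed 0. Over all wounds Pdpn ran from -0.38 to 0.010 and Nrp2 from -0.13 to 0.0049. Nrp2 ran from -0.49 to 0.031 in acellular 10 mm wounds, from -0.084 to 0.16 in HDB 10 mm wounds and from -0.0077 to 0.51 between HDB and acellular 10 mm wounds. In HDB 15 mm wounds Vegfc ran from -0.25 to 0.13 and Reln from -0.72 to 0.052. Between HDB and acellular 15 mm wounds Prox1 ran from -0.51 to 0.78, Flt4 from -0.21 to 0.54 and Mmrn1 from -0.72 to 0.82. Over both sizes Mmrn1 ran from -0.019 to 0.75 between HDB and acellular wounds. Relative to the pan-endothelial mean, the difference of Mmrn1 between all wounds and normal skin ran from -0.54 (without normal replicate 1) to 0.26 (without normal replicate 3), and was 0.072 relative to the macrophage mean.

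The use of macrophage genes as a reference and the DESeq2 calls for the other gene lists were chosen after seeing the data. The lowest count behind a value, 19 for Prox1, limits the precision of the rarest of these genes.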
